A study of Mus musculus with 10 samples.

Results

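Genes of mitosis and cytokinesis were followed in the mRNA of adipocyte precursors (APs) cultured with or without interleukin-4 (IL-4). The set holds 44 genes picked by name for their work in cell division, grouped here into 10 roles. It was chosen with earlier results of these data known, out of 18384 genes listed in at least 1 mRNA library. All 44 were read in every library, and all 44 passed the filter on low counts. The APs came from subcutaneous white adipose tissue of C57BL/6 J mice. They were selected against CD45 and CD31 and then for SCA-1. Every culture was kept in medium with fetal bovine serum. The 3 control cultures were grown without IL-4. The 3 IL-4 cultures received IL-4 from the day after seeding, and all were harvested on day 4. The IL-4 concentration, and whether the controls received a vehicle, are not given in the sources used here.

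A cell that divides first switches on the kinase CDK1 with its cyclins, which condenses the chromosomes and sets up the spindle. Kinetochores, protein assemblies on the centromeres, hold the chromosomes to spindle microtubules, and the spindle assembly checkpoint holds back the anaphase-promoting complex until all are attached. The contractile ring, the central spindle and the signals that spread from it then cleave the cell. The mRNAs of these proteins are made mostly in G2 and M phase, so that their level in a culture tends to follow how many of its cells are dividing.

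That timing is set in large part at promoters, where the MuvB complexes read the cell cycle genes homology region (CHR) and NF-Y reads CCAAT boxes. In RefSeq promoters of GRCm38.p6, which run from 250 bases before to 50 bases after a gene's start, 38 of the 44 genes were found. Ccna2, Aurkb, Incenp, Kif20a, Tpx2 and Spc24 had no entry. The CHR letters TTTGAA, on either strand, were in the promoters of 26 of the 38 genes (68.4%), against 14.4% of the 11077 tested genes with a promoter and 20.2% of all 27025 genes in the table. CCAAT, on either strand, was in 30 of the 38 (78.9%), against 42.8% of tested genes and 41.1% of all. Both were present in 23 of the 38 (60.5%), against 5.94% of tested genes and 7.97% of all. In 1 of the members' promoters the matches overlapped. The stretches upstream of the start are shown for Mki67, Top2a and Cdk1, which were lower with IL-4, and for Ccnb1, Cdc20 and Ube2c, which did not pass the test, with every match in capitals. These genes were chosen after their values had been seen.
Mki67 (chr7:135716460-135716532, minus strand): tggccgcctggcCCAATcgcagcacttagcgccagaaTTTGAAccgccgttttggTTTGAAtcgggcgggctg
Top2a (chr11:99024195-99024350, minus strand): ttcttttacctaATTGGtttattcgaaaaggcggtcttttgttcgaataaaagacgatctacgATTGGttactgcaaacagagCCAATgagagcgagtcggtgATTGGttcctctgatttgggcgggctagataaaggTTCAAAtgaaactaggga
Cdk1 (chr10:69352913-69353004, minus strand): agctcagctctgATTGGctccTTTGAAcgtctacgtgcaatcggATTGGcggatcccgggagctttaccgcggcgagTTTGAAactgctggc
Ccnb1 (chr13:100786537-100786597, minus strand): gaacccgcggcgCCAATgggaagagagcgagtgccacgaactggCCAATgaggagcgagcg
Cdc20 (chr4:118437344-118437408, minus strand): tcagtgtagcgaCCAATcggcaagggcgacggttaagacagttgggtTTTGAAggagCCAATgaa
Ube2c (chr2:164769762-164769917, plus strand): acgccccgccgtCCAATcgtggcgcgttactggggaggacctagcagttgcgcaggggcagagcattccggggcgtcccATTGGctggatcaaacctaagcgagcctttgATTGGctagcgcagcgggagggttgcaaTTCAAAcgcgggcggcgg
The shown stretch holds both motifs in Mki67, Top2a, Cdk1, Cdc20 and Ube2c, and CCAAT without a CHR in Ccnb1. Of the 16 genes lower with IL-4 that had a promoter entry, 12 held a CHR and 14 a CCAAT. Of the 22 others, 14 held a CHR and 16 a CCAAT. These matches are letters in a window, and no binding was measured.

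The control libraries held 28526782 to 28674604 expected counts and the IL-4 libraries 28914003 to 29057787, so that depth hardly differed. The 10 most abundant genes took 9.14% to 9.59% of control counts and 13.8% to 15.5% of IL-4 counts, which is why counts were scaled by TMM before levels were compared. All 13 markers of APs were present. Macrophage markers were present as well, although the cells had been selected against CD45, and none of the 17 was at 0 in any library. Ptprc, which encodes CD45, had 2563 ± 159.6 normalized counts without and 1294 ± 57.5 with IL-4 (SD, n = 3 each). The summed level of the 17 markers was 163262 to 205444 normalized counts without and 97141 to 112650 with IL-4. Of the 17, 15 (88.2%) were lower with IL-4, against 18.4% of all genes tested. The part of these markers in the results below was not tested.

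The libraries of a group differed from each other by transcript length, IL-4 replicate 6 the most. In IL-4 replicate 6 the 15 mitotic genes with transcripts under 2000 bases lay a median of 0.22 above the other 2 IL-4 libraries on the log2 scale, and the 10 with transcripts over 4000 bases lay 0.35 below. Control replicate 3 showed the same to a smaller degree, with medians of 0.19 for the short transcripts and -0.08 for the long ones, and control replicate 2 deviated the other way, with -0.09 and 0.11. Across the 44 genes, Spearman's rho between length and deviation was -0.85 in IL-4 replicate 6, -0.76 in control replicate 3 and 0.76 in control replicate 2, and across all 14009 tested genes it was -0.69, -0.53 and 0.48. These are descriptions across genes that share a library. The tendency touches Mki67 and Cenpf, the longest transcripts of the set, and Ube2c, the shortest, so that values without IL-4 replicate 6 or control replicate 3 are given where they matter.

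**Figure D1:**
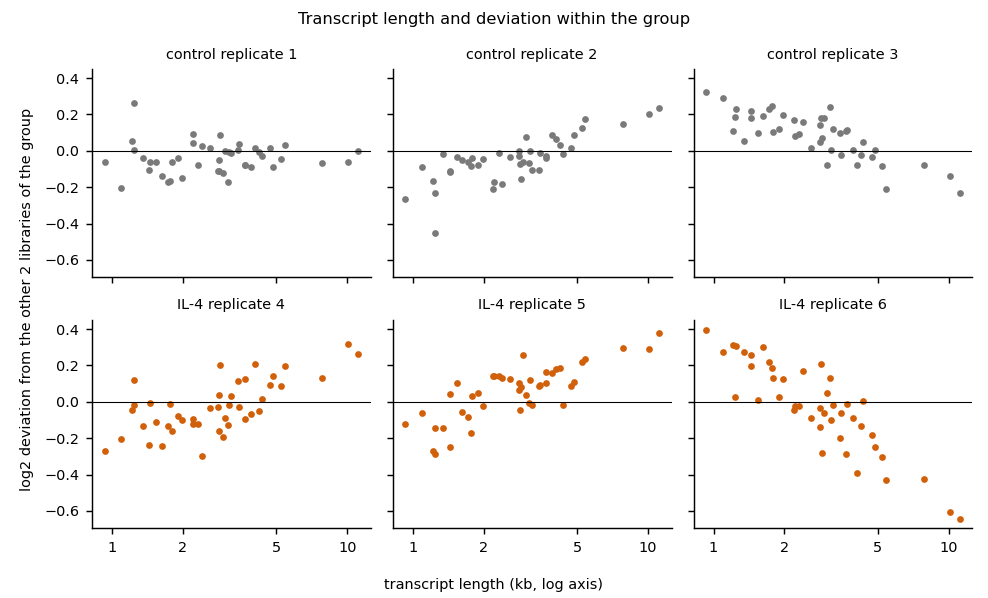
Deviation of each of the 44 genes from the mean of the other 2 libraries of its group (log2, vertical axis) against transcript length (kb, log axis), 1 panel per library and 1 point per gene. In IL-4 replicate 6 and control replicate 3 short transcripts sit high and long ones low, and in control replicate 2 and IL-4 replicates 4 and 5 the slope is the opposite. Each gene's deviations cancel out within its group, so that these slopes are linked.

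Part of the mitotic mRNAs were lower with IL-4, each by a modest amount. Of the 44 genes, 19 (43.2%) were lower with IL-4, and none (0) was higher, at an adjusted p under 0.05 (quasi-likelihood test of edgeR, Benjamini-Hochberg adjusted, 14009 genes). Among all genes tested 18.4% were lower and 19.0% higher, and among the 10793 genes at least as abundant as the least abundant member 18.1% were lower. By DESeq2 21 of the 44 were lower and 0 higher, against 18.3% and 18.5% of all genes tested. The count of 19 fell to 12 when control replicate 1, control replicate 3, IL-4 replicate 4 or IL-4 replicate 5 was left out. In those fits 27.3% of the members were lower, against 13.5% to 15.4% of all genes tested, so that calls fell across all genes. The same 10 genes passed whichever library was left out. Scaling by library totals alone gave 33 lower and 0 higher, in a setting where 35.4% of all genes were lower and 12.2% higher and the median of all genes moved to -0.17; relative to that median the members' median was again -0.23. No member passed a log2 fold change of 1 in either direction, while 11.0% of all genes tested did. The median log2 fold change was -0.23 over the members and 0.00 over all genes tested, and the members ranged from -0.69 for Mki67 to 0.13 for Ube2c. In 24 of the 44 genes (54.5%) every IL-4 library lay below every control library, a pattern seen in 25.3% of all genes tested, and in 0 did every IL-4 library lie above. In bulk RNA, fewer dividing cells and less of these mRNAs in each cell cannot be told apart. The paper reports that IL-4 raised the proliferation of APs by MTT assay, and that it raised the number of APs in cell counts. On a later day than these libraries it also found a higher percentage of Ki67-positive cells with IL-4. How those assays relate to the mRNA levels here was not tested.

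The summed level of the 44 genes was 76105, 78584 and 78677 normalized counts without IL-4 and 64412, 67671 and 61031 with it, and the groups did not overlap. Mki67 and Top2a hold a large part of that sum. Without them it was 60442 to 63436 in control and 52347 to 55544 in IL-4 libraries, again with no overlap. As a share of all expected counts, before any scaling, the 44 genes took 0.280% to 0.293% in control and 0.203% to 0.219% in IL-4 libraries. Mean FPKM over the members, which divides counts by transcript length, was 21.8 to 23.7 in control and 16.4 to 17.8 in IL-4 libraries. That division leaves each library's own trend with length in place. Both the share and FPKM rest on library totals. With that scaling the median log2 fold change was -0.17 over all genes and -0.40 over the members. Without control replicate 3 and IL-4 replicate 6, an alternative chosen after the data had been seen, 24 members were lower and 0 higher, and all 19 of the genes named lower here were among the 24. In that fit 25.1% of all genes tested were lower and 25.5% higher.

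**Figure D2:**
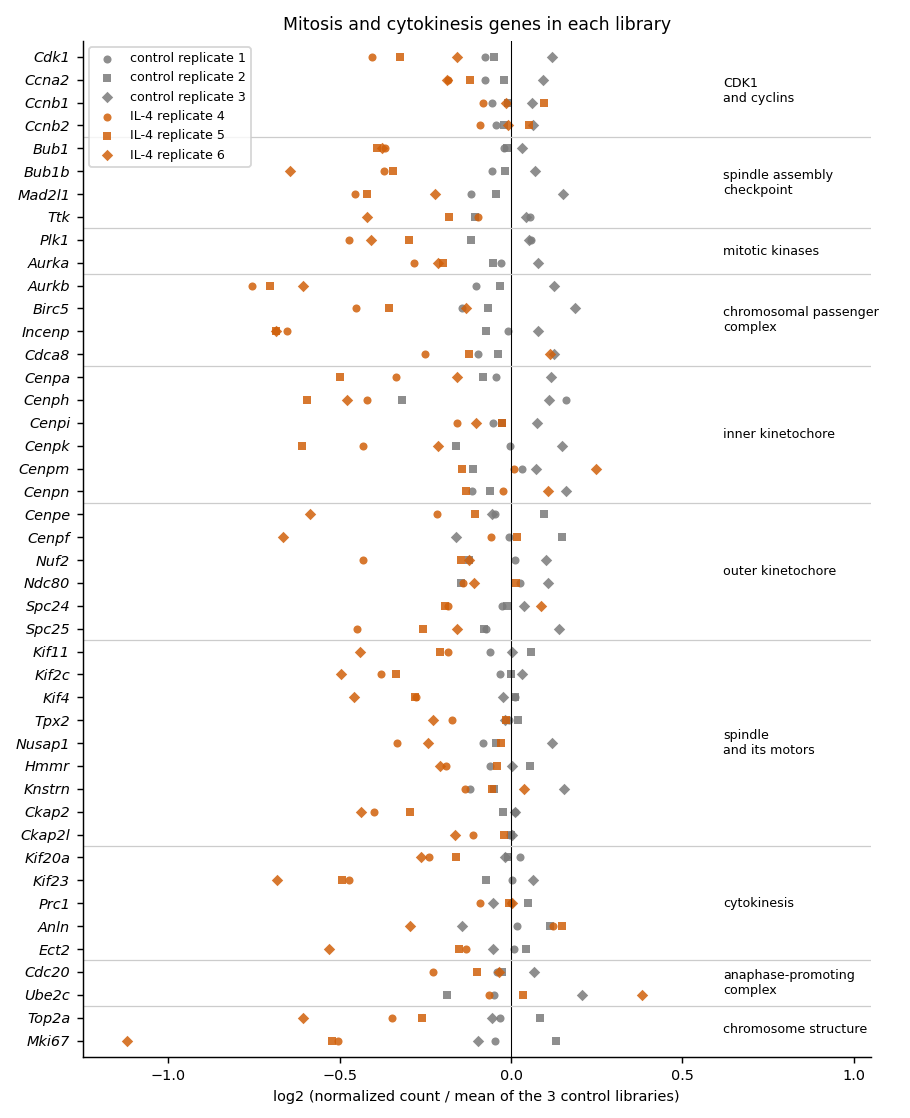
Level of each gene in each library, as the log2 ratio of its normalized count to the mean of the 3 control libraries (horizontal axis), grouped by role. Grey symbols are control and orange symbols IL-4 libraries; the orange symbols lie to the left of the grey ones for 24 genes, most clearly for Aurkb, Incenp, Kif23 and Mki67, and mix with them for Ccnb1, Prc1 and Cdc20.

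Both genes of chromosome structure were lower. Mki67 (Entrez gene 17345, chr7:135689784-135716450) encodes Ki-67, the protein that coats mitotic chromosomes and marks cycling cells. It had 9260, 10470 and 8943 normalized counts without and 6731, 6657 and 4390 with IL-4. It fell in all 3 IL-4 libraries, lowest in IL-4 replicate 6, and on average by 38.0% (log2 fold change -0.69, SE 0.16, adjusted p = 0.00996, quasi-likelihood test of edgeR, Benjamini-Hochberg adjusted). Without IL-4 replicate 6 the log2 fold change of Mki67 was -0.51, its smallest size when libraries were left out one by one, and it remained past the threshold each time. Top2a, the topoisomerase that untangles sister chromatids, had 6402, 6938 and 6298 normalized counts without and 5146, 5469 and 4294 with IL-4. The groups did not overlap (log2 fold change -0.40, SE 0.09, adjusted p = 0.0117, same test), but the call was lost without control replicate 2. With 1 library left out the log2 fold change of Top2a ranged from -0.46 to -0.30.

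Of the chromosomal passenger complex, which corrects faulty attachments and later guides cytokinesis, the kinase and its scaffold fell, and the other subunits did not pass the test in the main fit. Incenp (Entrez gene 16319, chr19:9872295-9899489), the scaffold, had 2073, 1984 and 2206 normalized counts without and 1327, 1296 and 1297 with IL-4. The groups were far apart and the 3 IL-4 libraries nearly equal (log2 fold change -0.68, SE 0.06, adjusted p = 7.83e-05, quasi-likelihood test of edgeR, Benjamini-Hochberg adjusted). Aurkb (Entrez gene 20877, chr11:69045624-69051664), the Aurora B kinase that Incenp holds, had 897, 942 and 1053 normalized counts without and 571, 591 and 633 with IL-4. It went from 964 ± 79.9 to 599 ± 31.4 normalized counts (n = 3 each, ± SD), a fall of 37.9% (log2 fold change -0.69, SE 0.08, adjusted p = 0.000359, same test). Birc5, which encodes survivin, had 1162, 1224 and 1461 normalized counts without and 938, 1002 and 1171 with IL-4, and IL-4 replicate 6 overlapped the controls (log2 fold change -0.31, SE 0.11, adjusted p = 0.0667). Birc5 did pass by DESeq2 (adjusted p = 0.0448), with library totals and limma, without IL-4 replicate 6 (adjusted p = 0.00561) and with offsets for transcript length (adjusted p = 0.000159). Cdca8, which encodes borealin, ranged from 1013 to 1181 in control and from 910 to 1171 in IL-4 libraries (log2 fold change -0.08, SE 0.10, adjusted p = 0.597, 95% interval -0.28 to 0.13), and passed with the length offsets alone (log2 fold change -0.18, adjusted p = 0.0351).

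Ratios between subunits were also taken within each library. The ratio of Aurkb to Cdca8 normalized counts was 0.886, 0.894 and 0.891 in control and 0.628, 0.595 and 0.541 in IL-4 libraries. That of Incenp to Cdca8 was 2.05, 1.88 and 1.87 in control and 1.46, 1.30 and 1.11 in IL-4 libraries. Aurkb and Incenp kept a like ratio, 0.433, 0.475 and 0.477 against 0.431, 0.456 and 0.488. These pairs, and those that follow, were chosen after their values had been seen and are given as descriptions, with no test.

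Of the mitotic kinases, both were lower. Plk1, the Polo-like kinase that acts from mitotic entry to cytokinesis, had 2076, 1839 and 2065 normalized counts without and 1435, 1622 and 1500 with IL-4, with no overlap (log2 fold change -0.39, SE 0.08, adjusted p = 0.00429, quasi-likelihood test of edgeR, Benjamini-Hochberg adjusted). Aurka, the Aurora A kinase of centrosomes and spindle poles, had 1131, 1112 and 1218 normalized counts without and 948, 1005 and 995 with IL-4. The groups did not overlap there either, and the fall was smaller (log2 fold change -0.23, SE 0.06, adjusted p = 0.0236, same test). Its call was lost when control replicate 1 or 3 or IL-4 replicate 4 or 5 was left out.

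Of CDK1 and its cyclins, 1 of 4 genes was lower. Cdk1, the kinase that starts mitosis, ranged from 1881 to 2154 normalized counts without and from 1499 to 1779 with IL-4 (log2 fold change -0.29, SE 0.09, adjusted p = 0.0287, quasi-likelihood test of edgeR, Benjamini-Hochberg adjusted), and its call held in 1 of the 6 fits that left out a library, the one without IL-4 replicate 6. Ccna2, cyclin A2, which acts in S and G2 phase, had 3210, 3338 and 3613 normalized counts without and 2981, 3115 and 2976 with IL-4. Each IL-4 library was below each control library, yet the difference did not pass the test (log2 fold change -0.16, SE 0.06, adjusted p = 0.0769), though it did with library totals, limma and length offsets. Whether Cdk1 changed by another amount than its cyclins was not tested. Ccnb1 (Entrez gene 268697, chr13:100778739-100786486), cyclin B1, the partner that takes Cdk1 into mitosis, had 1847, 1905 and 2002 normalized counts without and 1813, 2050 and 1899 with IL-4. The groups overlapped and the means nearly coincided (log2 fold change 0.00, SE 0.07, adjusted p = 0.985, 95% interval -0.13 to 0.13). Ccnb2, cyclin B2, ranged from 1271 to 1368 and from 1230 to 1358 (log2 fold change -0.01, SE 0.06, adjusted p = 0.882). The ratio of Cdk1 to Ccnb1 was 1.02, 1.01 and 1.08 in control and 0.827, 0.772 and 0.937 in IL-4 libraries.

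Of the spindle assembly checkpoint, 3 of 4 genes were lower. Bub1b, which encodes BubR1, a part of the complex that blocks the anaphase-promoting complex, had 1560, 1599 and 1702 normalized counts without and 1253, 1277 and 1037 with IL-4 (log2 fold change -0.45, SE 0.09, adjusted p = 0.00529, quasi-likelihood test of edgeR, Benjamini-Hochberg adjusted). Without IL-4 replicate 6 the log2 fold change of Bub1b was -0.35. Bub1, the kinase that brings checkpoint proteins to kinetochores, had 1206, 1213 and 1252 normalized counts without and 948, 934 and 943 with IL-4. Its values within each group were close together and the groups far apart (log2 fold change -0.38, SE 0.06, adjusted p = 0.00111, same test). Mad2l1, which encodes the CDC20 inhibitor MAD2, was lower too (log2 fold change -0.36, SE 0.10, adjusted p = 0.0188), but not without control replicate 3, IL-4 replicate 4 or IL-4 replicate 5. Ttk, the kinase that starts checkpoint signalling, ranged from 432 to 483 and from 347 to 434 normalized counts and did not pass (log2 fold change -0.23, SE 0.10, adjusted p = 0.121).

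Of the anaphase-promoting complex, which the checkpoint restrains, neither gene passed the test. Cdc20, its activator, had 1568, 1582 and 1689 normalized counts without and 1378, 1504 and 1575 with IL-4 (log2 fold change -0.12, SE 0.07, adjusted p = 0.228). Ube2c (Entrez gene 68612, chr2:164769929-164772902), the ubiquitin-conjugating enzyme that works with it, had 1894, 1724 and 2264 normalized counts without and 1877, 2008 and 2554 with IL-4. Both groups reached highest in the libraries that favoured short transcripts, control replicate 3 and IL-4 replicate 6, and the interval was wide (log2 fold change 0.13, SE 0.14, adjusted p = 0.5, 95% interval -0.14 to 0.40). Without IL-4 replicate 6 the log2 fold change of Ube2c was -0.01. Per length, Ube2c was the most abundant of the 44, with a mean FPKM of 83.9 in control and 81.3 in IL-4 libraries. The ratio of Bub1b to Cdc20 was 0.995, 1.01 and 1.01 in control and 0.909, 0.849 and 0.658 in IL-4 libraries. A length-related component of that ratio was not tested.

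At the inner kinetochore 3 of 6 genes were lower. Cenpa, the histone H3 variant that marks the centromere, had 1107, 1079 and 1239 normalized counts without and 904, 808 and 1023 with IL-4 (log2 fold change -0.32, SE 0.10, adjusted p = 0.0343, quasi-likelihood test of edgeR, Benjamini-Hochberg adjusted). Cenph, Cenpi, Cenpk and Cenpm encode the subunits of 1 assembly that stands on it. Cenph had 253, 181 and 244 normalized counts without and 169, 150 and 162 with IL-4, a low level at which control replicate 2 came close to the IL-4 libraries (log2 fold change -0.50, SE 0.14, adjusted p = 0.027). Cenpk ranged from 157 to 195 and from 115 to 152 (log2 fold change -0.41, SE 0.14, adjusted p = 0.0486), near the threshold. Cenpi had 543, 553 and 593 normalized counts without and 505, 553 and 524 with IL-4 and overlapped (log2 fold change -0.09, SE 0.07, adjusted p = 0.365). Cenpm had 210, 190 and 216 normalized counts without and 206, 186 and 244 with IL-4, likewise with overlap (log2 fold change 0.05, SE 0.12, adjusted p = 0.798, 95% interval -0.19 to 0.29). Cenpn, which binds the Cenpa nucleosome directly, had 451, 467 and 545 normalized counts without and 479, 445 and 526 with IL-4 (log2 fold change -0.01, SE 0.10, adjusted p = 0.935). The calls of Cenpa, Cenph and Cenpk each rested on particular libraries and were lost in 4 or 5 of the 6 fits that left 1 out.

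At the outer kinetochore, which grips the microtubules, 0 of 6 genes passed the test, although all 6 had a fitted value below 0. Other settings made calls here. Spc25 was lower by DESeq2 (adjusted p = 0.0414), Cenpe with upper-quartile scaling (adjusted p = 0.0466), and Nuf2 and Spc25 without IL-4 replicate 6 (adjusted p = 0.0338 and 0.0096). Cenpe, Nuf2 and Spc25 were lower with library totals, by limma and without control replicate 3 and IL-4 replicate 6, and these 3 and Spc24 with length offsets. Cenpe, a kinesin that carries chromosomes to the spindle equator, had 2002, 2209 and 1991 normalized counts without and 1779, 1920 and 1376 with IL-4 (log2 fold change -0.29, SE 0.12, adjusted p = 0.0945), and without IL-4 replicate 6 the log2 fold change of Cenpe was -0.16 (adjusted p = 0.0821). Cenpf, a large protein that links kinetochores to dynein, had 1791, 1995 and 1610 normalized counts without and 1727, 1819 and 1135 with IL-4. Its IL-4 replicates 4 and 5 lay inside the control range and IL-4 replicate 6 far below it (log2 fold change -0.21, SE 0.17, adjusted p = 0.388), and without it the log2 fold change of Cenpf was -0.015 (adjusted p = 0.901). Part of the Cenpf counts was shared with other transcripts. Ndc80, Nuf2, Spc24 and Spc25 form the NDC80 complex, the main microtubule grip. Their log2 fold changes were -0.08, -0.23, -0.09 and -0.28, with adjusted p from 0.0537 for Spc25 to 0.536 for Ndc80, and the IL-4 libraries lay wholly below the controls in Spc25 alone of the 4.

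Of the 9 genes of the spindle and its motors, 4 were lower, and each of the 9 had a fitted value below 0. Tpx2, which activates Aurora A on microtubules and was the most abundant of the 9 by count, had 3321, 3384 and 3296 normalized counts without and 2958, 3301 and 2848 with IL-4, with overlap at IL-4 replicate 5 (log2 fold change -0.14, SE 0.07, adjusted p = 0.16, quasi-likelihood test of edgeR, Benjamini-Hochberg adjusted). Kif11, the kinesin that pushes the spindle poles apart, had 1897, 2061 and 1983 normalized counts without and 1743, 1717 and 1458 with IL-4, with no overlap (log2 fold change -0.27, SE 0.08, adjusted p = 0.0309, same test). Its call held in 2 of the 6 fits that left out a library and was lost without control replicate 1, 2 or 3 or IL-4 replicate 5. In those 6 fits its log2 fold change ranged from -0.31 to -0.19. The other 3 that fell were Kif2c, a kinesin that takes microtubules apart at their ends (log2 fold change -0.40, SE 0.07, adjusted p = 0.00201), Kif4, a kinesin of chromosome arms (log2 fold change -0.34, SE 0.07, adjusted p = 0.00669), and Ckap2, a microtubule stabiliser (log2 fold change -0.38, SE 0.06, adjusted p = 0.00196). These 3 kept their call whichever library was left out. Nusap1, Hmmr, Knstrn and Ckap2l, all bound to spindle microtubules, had log2 fold changes of -0.20, -0.14, -0.05 and -0.10 and did not pass.

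In cytokinesis 2 of 5 genes were lower. Kif23 (Entrez gene 71819, chr9:61917277-61946810), the kinesin of centralspindlin, which bundles the central spindle and recruits Ect2, had 1372, 1302 and 1432 normalized counts without and 985, 972 and 852 with IL-4. It went from 1369 ± 65.2 to 937 ± 73.7 normalized counts (n = 3 each, ± SD), a fall of 31.6% (log2 fold change -0.55, SE 0.08, adjusted p = 0.000849, quasi-likelihood test of edgeR, Benjamini-Hochberg adjusted). Kif20a, the kinesin that moves the passenger complex to the central spindle, was lower too (log2 fold change -0.22, SE 0.06, adjusted p = 0.015, same test), but not without control replicate 1, control replicate 2 or IL-4 replicate 4. Prc1, the microtubule bundler of the central spindle, had 3335, 3456 and 3218 normalized counts without and 3134, 3322 and 3339 with IL-4. Here the groups lay on top of each other (log2 fold change -0.03, SE 0.06, adjusted p = 0.714, 95% interval -0.14 to 0.08). Anln, which encodes anillin of the contractile ring, had 3327, 3559 and 2980 normalized counts without and 3578, 3647 and 2679 with IL-4. IL-4 replicates 4 and 5 were above the controls and IL-4 replicate 6 below them (log2 fold change 0.01, SE 0.12, adjusted p = 0.978). With 1 library left out the log2 fold change of Anln ranged from -0.06 to 0.14. Ect2, the activator of RhoA at the cleavage plane, ranged from 1227 to 1313 and from 881 to 1163 and did not pass (log2 fold change -0.26, SE 0.11, adjusted p = 0.0954). Its log2 fold change with 1 library left out was -0.32 to -0.14. The ratio of Kif23 to Prc1 was 0.411, 0.377 and 0.445 in control and 0.314, 0.293 and 0.255 in IL-4 libraries.

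**Figure D3:**
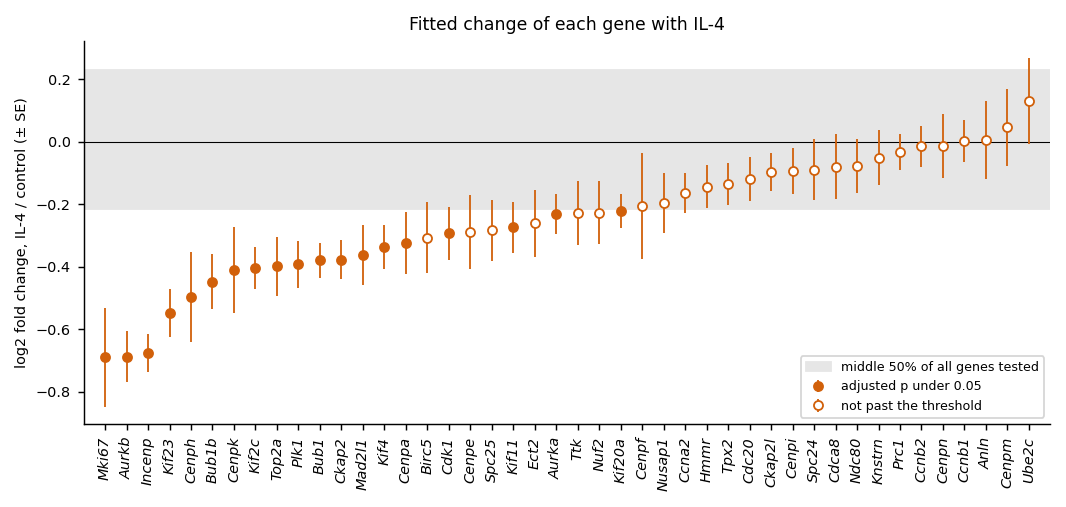
Fitted log2 fold change of each gene, IL-4 against control (vertical axis, bars ± SE), in ascending order. Filled points are the 19 genes lower at an adjusted p under 0.05, open points the 25 that did not pass, and the grey band holds the middle 50% of all 14009 genes tested; Mki67, Aurkb, Incenp and Kif23 are lowest.

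**Figure D4:**
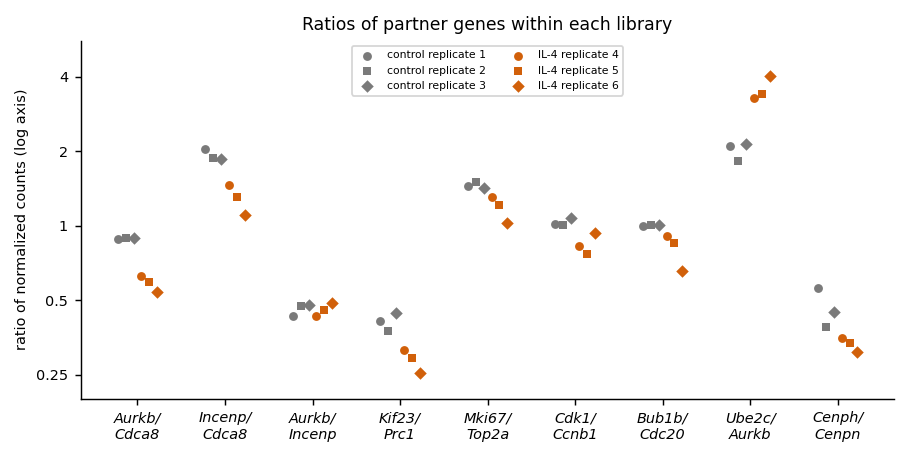
Ratio of the normalized counts of paired genes within each library (vertical log axis), grey for control and orange for IL-4 libraries. The groups are apart for each pair but Aurkb to Incenp, which ranges from 0.433 to 0.477 in control and from 0.431 to 0.488 in IL-4 libraries. The pairs were chosen after their values had been seen, so that the separation is a description only. A length-related component of these ratios was not tested.

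Other genes of division were counted for comparison. These lists too were chosen with earlier results of these data known, so that they are no independent support. Of 68 further mitosis genes, 35 (51.5%) were lower and 0 higher (quasi-likelihood test of edgeR, Benjamini-Hochberg adjusted), with a median log2 fold change of -0.27. The most abundant of them did not pass, namely Smc4 of condensin (log2 fold change 0.02, adjusted p = 0.821), Ube2s (log2 fold change -0.01, adjusted p = 0.947) and Cdc27 of the anaphase-promoting complex (log2 fold change -0.10, adjusted p = 0.419). Of 35 DNA replication genes, 25 (71.4%) were lower and 1 higher, with a median of -0.51. The 1 that rose was Dut, which breaks down dUTP (log2 fold change 0.78, adjusted p = 0.00119). Rrm1, a subunit of the reductase that makes deoxyribonucleotides, had 5057 ± 144 normalized counts without and 3232 ± 206 with IL-4 (SD, n = 3 each) (log2 fold change -0.65, adjusted p = 0.00013), and Mcm6, part of the replicative helicase, had 2964 ± 99.9 normalized counts without and 1865 ± 165 with IL-4 (SD, n = 3 each) (log2 fold change -0.67, adjusted p = 0.000265). Pcna, the sliding clamp, did not pass (log2 fold change -0.27, adjusted p = 0.0539).

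Of 25 regulators of mitotic transcription, 9 were lower and 0 higher. Foxm1, which drives G2 and M genes, had 2111 ± 45.2 normalized counts without and 1637 ± 114 with IL-4 (SD, n = 3 each) (log2 fold change -0.37, adjusted p = 0.0034, quasi-likelihood test of edgeR, Benjamini-Hochberg adjusted). Mybl2, its partner on MuvB, had 425 ± 12.1 normalized counts without and 310 ± 13.4 with IL-4 (SD, n = 3 each) (log2 fold change -0.45, adjusted p = 0.00215, same test), and Lin9, a MuvB core subunit, had 449 ± 18.6 normalized counts without and 288 ± 13.9 with IL-4 (SD, n = 3 each) (log2 fold change -0.64, adjusted p = 0.00043). The E2F repressors E2f7 and E2f8 had log2 fold changes of -0.73 and -0.75, with adjusted p of 0.00935 and 0.000159. E2f1 (log2 fold change -0.12, adjusted p = 0.165) and Lin54, the MuvB subunit that touches the CHR (log2 fold change -0.17, adjusted p = 0.182), did not pass. Trp53, which acts against division, was lower (log2 fold change -0.28, adjusted p = 0.0166), and its target Cdkn1a, the inhibitor p21, did not pass (log2 fold change -0.18, adjusted p = 0.0988).

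**Figure D5:**
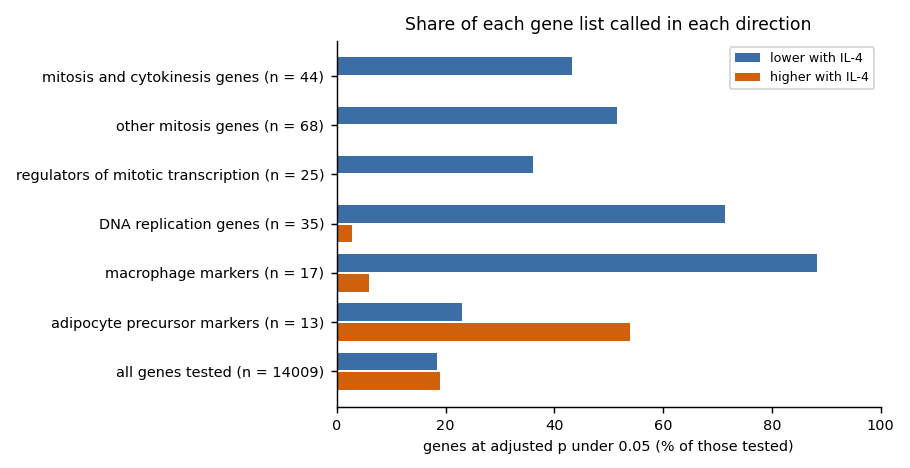
Percent of the tested genes of each list lower (blue) or higher (orange) with IL-4 at an adjusted p under 0.05, with the number tested in brackets. The mitosis and cytokinesis genes reach 43.2% lower and 0% higher, against 18.4% and 19.0% of all genes tested.

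Markers of other cells moved in the same libraries, where 18.4% of all genes tested were lower with IL-4 and 19.0% higher. Among the macrophage markers Lyz2 had 73410 ± 10700 normalized counts without and 23480 ± 3875 with IL-4 (SD, n = 3 each) (log2 fold change -1.64, adjusted p = 5.9e-05), Laptm5 had 12010 ± 875 normalized counts without and 7871 ± 438 with IL-4 (SD, n = 3 each) (log2 fold change -0.61, adjusted p = 0.000396), and Mrc1 was the marker that rose (log2 fold change 0.81, adjusted p = 0.000466). Of 9 endothelial markers 4 (44.4%) were lower and 2 higher. Their summed level rose from 1608 to 1731 normalized counts without to 2569 to 3201 with IL-4. Vwf, von Willebrand factor, carried that rise, with 191 ± 28.8 normalized counts without and 1608 ± 246 with IL-4 (SD, n = 3 each), and without Vwf the sum was 1450.3 to 1527 without and 1244 to 1449 with IL-4. Lymphocyte markers summed to 77.0 to 102 and 27.8 to 39.5 normalized counts, and Cd3d, Cd3e and Cd3g were listed in no library, which counts as 0. Of the 10 mature adipocyte markers 2 had counts enough to test, 1 higher and 1 lower, and their sum was 741 to 858 against 1194 to 1566. Of the 13 AP markers 7 were higher and 3 (23.1%) lower, the latter near the share of all genes tested. How much of the mitotic mRNA came from each of these cells was not measured, and the part of the macrophage markers' fall in that of the mitotic genes was not tested.

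The series also sequenced small RNAs of the same kind of culture, harvested after 2 days with IL-4, earlier than the mRNA. There the paper reports higher levels of miRNAs of the H19X cluster on the X chromosome with IL-4. Mature sequences are shown for those with a seed match in the 3′ UTR of a mitotic gene, with the seed, bases 2 to 8, in capitals.
miR-322-5p: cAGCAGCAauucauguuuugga
miR-503-5p: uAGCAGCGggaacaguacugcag
miR-351-5p: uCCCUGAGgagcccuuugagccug
miR-542-3p: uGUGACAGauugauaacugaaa
miR-450b-5p: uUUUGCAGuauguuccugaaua
The miR-322-5p seed differs from that of miR-503-5p in its last base. A match to the reverse complement of the miR-322-5p seed, TGCTGCT, was in the longest RefSeq 3′ UTR of 9 of the 44 genes (20.5%), namely Aurka, Birc5, Cdk1, Cenph, Cenpn, Hmmr, Kif23, Knstrn and Nusap1, against 22.8% of 13371 tested genes with a 3′ UTR. The median 3′ UTR was 609 bases over the 44 genes and 1077 bases over the tested genes. Sites in 4 genes that were lower with IL-4 are shown in GRCm38.p6, with the match in capitals.
Cdk1 (site at chr10:69337700-69337706, minus strand): tggaaaaggagccgtatcgctgTGCTGCTt
Kif23 (site at chr9:61917466-61917472, minus strand): aaaaaaaaaaaaaacaaacaaaTGCTGCTa
Cenph (site at chr13:100760000-100760006, minus strand): aatggtgtttttggaaccactcTGCTGCTt
Aurka (site at chr2:172356650-172356656, minus strand): atccaggaaaccccaagaaccaTGCTGCTt
Of the 9 genes with a site 4 were lower with IL-4, with a median log2 fold change of -0.23, and of the 35 without 15 were lower, with a median of -0.23. For miR-503-5p the count was 2 of 44, against 4.62% of tested genes. For miR-351-5p it was 4 of 44 against 14.5%, for miR-542-3p 4 of 44 against 15.4%, and for miR-450b-5p 5 of 44 against 12.1%. No member held a match to miR-450a-5p. The 3′ UTR used was 2936 bases for Birc5 and 3352 bases for Cdk1. Both exceed the whole transcript lengths of 1097 and 2860 bases that go with their counts. Whether the matches lie in the mRNAs counted here was not tested, and whether any of these sites is used was not measured.

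The gene ontology terms in the files, which are incomplete, tie 19 of the 44 genes to cell division, 13 to the kinetochore and 13 to the midbody. Of 282 tested genes with the term cell division 75 (26.6%) were lower and 17 higher, with a median log2 fold change of -0.11. The 65 tested genes of the kinetochore had 18 lower (27.7%) and 3 higher, and the 130 of the midbody 34 lower (26.2%) and 18 higher. Of 235 with the term cell cycle 51 were lower (21.7%), and of 407 of the centrosome 86 (21.1%), against 18.4% of all genes tested. These terms include members, so that the counts are not independent of those above.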

How the data were processed

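mRNA-seq of 3 control and 3 IL-4 cultures was used, 3 biological replicates per group by the series' description; the small RNA libraries were not used here. The authors filtered the reads and deposited, for each library, expected counts per gene from RSEM after Bowtie2 alignment, not normalized. The deposited FPKM are per transcript length and library size, as computed by the authors. The study's methods also name mapping to mm10 with HISAT, and the submitters' processing notes name StringTie, whose role is not given in the sources used here. Versions are not given there either. A gene without a row in a library was taken as 0. The 1 row per library without a gene symbol held at most 0.000225% of the counts and was left out. Genes were matched by symbol. Expected counts of 10 members were not whole in at least 1 library, since reads were shared with other transcripts (Cenpf, Nusap1, Birc5, Ccna2, Hmmr, Kif11, Kif20a, Cenpk, Spc24 and Ube2c).

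After rounding, genes were kept by filterByExpr at a count of 10 and a total of 15. TMM scaling and the quasi-likelihood test of edgeR 4.0.16 in R 4.3.3 followed, and p-values were adjusted over the 14009 genes tested by the Benjamini-Hochberg method, with a threshold of 0.05. Normalized counts are counts over the scaled library size, times its mean. Approximate 95% intervals are the fitted value and a normal interval from its SE, and they are narrower than the test allows. That of Tpx2, -0.268 to -0.002, leaves out 0, while its unadjusted p by the quasi-likelihood test was 0.0816. Depth was 28526782 to 29057787 counts per library, and the biological coefficient of variation 0.0939. The fits were tried on simulated data first.

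The members and the other gene lists were chosen with earlier results of these data known. Values in every library are given for the 2 members of each role with the highest mean count and for the 5 largest and 5 smallest fold changes. Library pairs, ratios and seed sites were chosen after values were seen. Promoters and miRNAs are RefSeq entries of GRCm38.p6, the assembly of mm10. 3′ UTRs are the longest of each gene's RefSeq mRNAs. Alternatives were DESeq2 1.42.0, upper-quartile scaling, library totals, limma 3.58.1 on log2 FPKM with a pseudocount of 1 or 0.1, no filter, and each library left out. Added after seeing the data were control replicate 3 and IL-4 replicate 6 left out together and offsets for transcript length (loess, span 0.5). Python 3.11.15, pandas 2.3.3, scipy 1.17.1 and matplotlib 3.10.9 were used.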

Additional observations from a re-analysis of the deposited data

How the results depend on the processing

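The count of 0 members higher, 0 past a log2 fold change of 1, and the negative median held in every alternative run. With library totals 33 members were lower, and by limma on log2(FPKM + 1) and log2(FPKM + 0.1) 34 and 34, with medians of -0.40, -0.38 and -0.40, where the median of all genes moved to -0.17, -0.13 and -0.17. In these settings 35.0% to 35.4% of all genes tested were lower. With 1 library left out, 12 to 22 members were lower and the median was -0.26 to -0.19, where 13.5% to 21.3% of all genes tested were lower. Without both control replicate 3 and IL-4 replicate 6, 24 members were lower, where 25.1% of all genes tested were lower. Length offsets gave 28 lower and a median of -0.22, where 27.5% of all genes were lower and 23.9% higher. Of the members called in the main analysis, all 19 were also called by DESeq2, library totals, no filter, both limma settings and both added alternatives, and 18 with upper-quartile scaling. Of the regulators 16, 17 and 17 were lower with library totals and the limma settings. With 1 library left out, 22 to 39 further mitosis genes, 8 to 11 regulators, 20 to 30 DNA replication genes, 11 to 15 macrophage, 2 to 4 endothelial and 0 to 1 mature adipocyte markers were lower, and 1 to 2 macrophage markers higher. Without both libraries 41 further mitosis genes were lower and 2 higher, and 5 endothelial markers were lower. Macrophage markers higher were 2 by DESeq2, with no filter, with length offsets and without both libraries. Mature adipocyte markers lower were 0 by DESeq2 and without both libraries, and 2 were higher with no filter. Between settings 37 fitted values of 9 members changed sign, 0 of them past the threshold. Beside the main value in brackets, the fitted log2 fold change of Ccnb1 (0.002) was -0.021 with upper-quartile scaling, -0.17 with library totals, -0.17 and -0.17 by limma, -0.0325 with length offsets and -0.0381 to 0.0507 with libraries left out. That of Ccnb2 (-0.0145) was -0.0399 to 0.0308 with libraries left out. That of Cdca8 (-0.0791) was -0.18 to 0.0088 with libraries left out. That of Cenpm (0.0468) was -0.12 with library totals, -0.12 and -0.14 by limma, -0.099 with length offsets and -0.0611 to 0.14 with libraries left out. That of Cenpn (-0.0127) was -0.0723 to 0.0735 with libraries left out. That of Knstrn (-0.0502) was -0.11 to 0.0325 with libraries left out. That of Prc1 (-0.031) was -0.073 to 0.0067 with libraries left out. That of Anln (0.0055) was -0.0209 with upper-quartile scaling, -0.17 with library totals, -0.17 and -0.18 by limma and -0.0637 to 0.14 with libraries left out. That of Ube2c (0.13) was -0.0405 with library totals, -0.0482 and -0.0488 by limma, -0.0511 with length offsets and -0.0084 to 0.25 with libraries left out. Here the ranges with libraries left out cover single libraries and control replicate 3 and IL-4 replicate 6 together. The cause was not tested. No paired analysis was possible because the control libraries are numbered 1 to 3 and the IL-4 libraries 4 to 6, so that the groups share no replicate number. No test for outlying samples was run on groups of 3. Depth was even between libraries, and the part of counting noise in the spread was not measured.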
